A study of Mus musculus with 3 samples.

Results

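The chromatin domains at 4 developmental genes on mouse chromosome 1, Wnt6, Ihh, Epha4 and Pax3, were examined in wild-type limb buds. The rule that takes the regions uses position and no score, although the 4 genes were picked with earlier results of these data known. A point in the mm9 genome was taken for each gene, at 74.82 Mb for Wnt6, 74.99 Mb for Ihh, 77.51 Mb for Epha4 and 78.19 Mb for Pax3. The domain holding each point was then taken from the authors' domain table, or the gap where no domain held it, with 1 domain on each side. Since flanks were shared, this gave 8 domains of the 4124 in the table, of which 306 lie on chromosome 1, and 1 gap. The points are approximate to 10 kb, and the table itself carries no gene names.

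The samples were 3 Hi-C libraries of fore- and hindlimb buds from mouse embryos at stage E11.5 with the genotype WT, all in 1 group, with no mutant or treatment. The labels call them technical replicates of pooled tissue, from 8 embryos by the protocol and 10 by the design text, and their cell type label names G4 ESC although the source is limb bud. Hi-C holds no expression values, so the tissue could not be checked against markers. All libraries share 1 value per domain, with no depth and no values per library, so every value below is without a replicate error and no test between samples could be made.

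Wnt6 and Ihh encode secreted signals of the Wnt and hedgehog families. Wnt6 is known from epithelia such as the limb ectoderm, and Ihh controls the growth of cartilage in the forming bones. Epha4 is a receptor tyrosine kinase for ephrins that is expressed in limb mesenchyme, and Pax3 is a paired-box transcription factor of the muscle precursors that migrate into the limb. The neighbourhood of Epha4 is known for limb enhancers, and rearrangements of it are known to bring these enhancers to Pax3, Wnt6 or Ihh and to cause malformed digits. A domain is a stretch of chromatin whose parts contact each other more than the outside, and an architectural stripe is a line of contacts running from 1 edge of a domain along its length.

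The gene order was taken from RefSeq (GRCm38.p6), by names only because its build differs from that of the table. Wnt6 and Ihh are separated there by 5 protein-coding genes, namely Wnt10a, Cdk5r2, Fev, Cryba2 and Cfap65. Between Ihh and Epha4 lie 26, beginning with Nhej1 and Slc23a3 and ending with Stk11ip and Slc4a3. Between Epha4 and Pax3 lie 0 protein-coding genes and 6 genes of other kinds. The points of Wnt6 and Ihh are 170 kb apart, those of Ihh and Epha4 2520 kb and those of Epha4 and Pax3 680 kb.

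The promoters are shown to identify the genes whose approximate points were set against the domain edges, with every CG dinucleotide in capitals. The edges were not compared with the gene starts themselves. The table of RefSeq promoters (GRCm38.p6) was matched for 3 of the 4 genes, and the 250 bases before each start are given 5′ to 3′ on the gene's own strand.
Wnt6: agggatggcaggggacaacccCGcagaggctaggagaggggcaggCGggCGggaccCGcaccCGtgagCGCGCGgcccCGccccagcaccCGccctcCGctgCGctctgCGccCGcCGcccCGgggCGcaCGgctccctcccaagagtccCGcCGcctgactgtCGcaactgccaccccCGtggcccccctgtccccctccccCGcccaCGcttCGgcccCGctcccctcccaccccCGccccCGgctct
Ihh: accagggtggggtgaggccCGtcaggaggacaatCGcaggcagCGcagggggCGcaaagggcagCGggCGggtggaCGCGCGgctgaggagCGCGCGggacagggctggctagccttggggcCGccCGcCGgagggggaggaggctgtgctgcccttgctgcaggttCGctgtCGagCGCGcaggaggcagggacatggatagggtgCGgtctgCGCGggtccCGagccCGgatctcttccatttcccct
Epha4: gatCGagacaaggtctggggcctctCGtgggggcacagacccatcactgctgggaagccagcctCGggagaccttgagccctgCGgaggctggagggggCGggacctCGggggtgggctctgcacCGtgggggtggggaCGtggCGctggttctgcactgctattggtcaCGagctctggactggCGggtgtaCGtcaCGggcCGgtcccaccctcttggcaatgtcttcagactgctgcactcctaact
The sequences grow poorer in CG in this order. The Wnt6 sequence holds 28 CG dinucleotides and is 79.6% G or C, which places it at the 98.7th percentile of GC content among the 32851 promoters of that table. The Ihh sequence holds 24 and is 72% G or C (93.3rd percentile). The Epha4 sequence holds 14 and is 66% G or C (84.8th percentile). The medians of all promoters are 6 CG dinucleotides and 52.4%. Wnt6 is read toward higher coordinates there, and Ihh and Epha4 toward lower ones.

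Of the 4 points, 3 lay in domains of very different length and 1 lay in none. The Wnt6 point fell in a gap, the Ihh point in a short domain of 225 kb, the Epha4 point at the right end of a domain of 1550 kb, and the Pax3 point in the middle of a domain of 550 kb. The Ihh domain and the left neighbour of the Epha4 domain were in class 1, which in this table is a probability of 0.5 or more. Class 1 is taken here as the stripe class, from the aim in the design text, since the table does not spell out its classes. It also gives each domain a direction, TRUE or FALSE, without saying how it was found or which side it names. The other 6 domains, those of Epha4 and Pax3 included, were in class 0. Left and right mean toward lower and higher coordinates. The count of 2 class 1 domains in 8 stands beside 35.1% of all domains and 35.6% of those on chromosome 1. With a set this small, nothing about the 8 domains is read from the count.

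**Figure D1:**
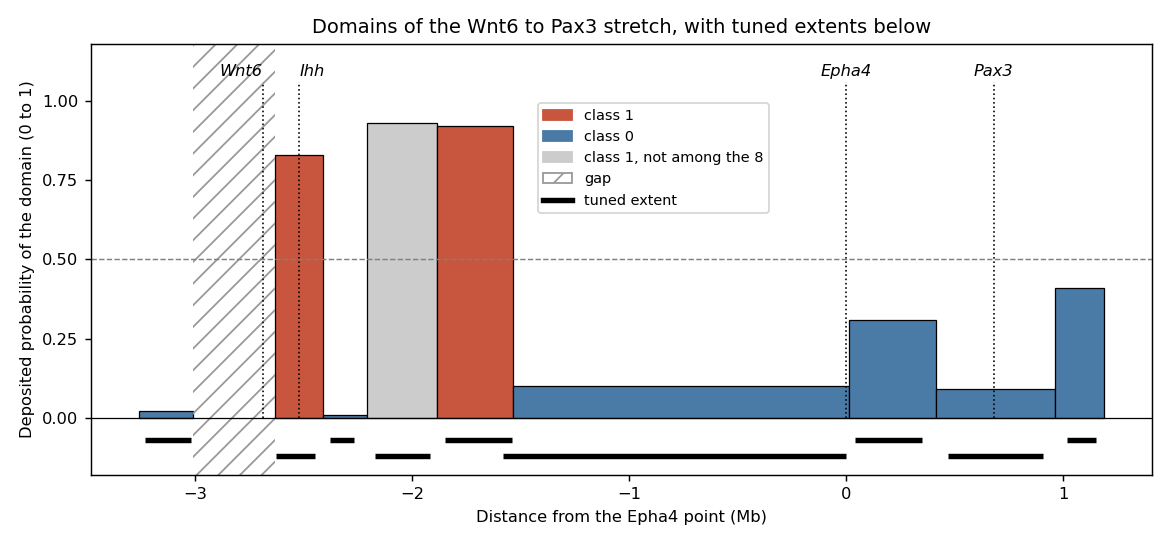
Domains from the left flank of the Wnt6 gap to the right flank of Pax3, by distance from the Epha4 point in Mb; bar height is the deposited probability (dashed line, 0.5), bar width the domain's extent, and black lines below are tuned extents. The Epha4 point stands at the right end of the widest bar (1550 kb, probability 0.10), and the bars of Ihh (0.83) and of the left neighbour of Epha4 (0.92) pass the line, as does the grey domain outside the 8 (0.93).

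From the left flank of the Wnt6 gap to the right flank of the Pax3 domain, the stretch chr1:74250001-78700000 covered 4450 kb and held 9 domains, the 8 members and 1 more. Domains filled 4075 kb of it, and the gap at Wnt6 was the remaining 375 kb. It was the only gap among the 8 neighbouring pairs of the stretch by the domain edges used here. Over all chromosomes, 24.9% of neighbouring pairs were separated by a gap by the same edges. The second, tuned edges described below left spaces at other pairs too, such as 40 kb between the Epha4 domain and its right neighbour. The domain outside the 8, chr1:75300001-75625000, lay between the right neighbour of Ihh and the left neighbour of Epha4 and was in class 1, with a probability of 0.93.

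The Wnt6 gap, chr1:74500001-74875000, was longer than most. Its 375 kb lay at the 88.8th percentile of the 1021 gaps, whose median was 125 kb, and 4 of the 73 gaps on chromosome 1 were longer. This rank counts each gap once, although a point falls in a long gap more often than in a short one. The Wnt6 point stood 320 kb from the left edge of the gap and 55 kb from the right one, which is the start of the Ihh domain. The nearest class 1 domain was thus the Ihh domain on its right, and the next on its left ended 570 kb away. No domain score applies to Wnt6 itself, since the authors' scores are per domain.

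The domain on the left of that gap, chr1:74250001-74500000, was 250 kb long and had the second lowest probability of the 8, 0.02. Its imbalance score was 0.425, at the 62.1st percentile. Imbalance is by its name a measure of one-sidedness, but its formula, like that of the cosine score, is not stated in the labels or the table. The scores therefore only rank domains here. Apart from a set of class 1 domains with imbalance between 0.0683 and 0.118, the lowest imbalance in class 1 was 0.429. That value was no cut-off, since 194 class 0 domains had a higher imbalance. The left flank of the Wnt6 gap stood just below 0.429. Among the 200 domains nearest to it in imbalance, 4 were class 1 and the probability ranged from 0.02 to 0.66 with a median of 0.16. Its value was at the lower end of that range, and its cosine score of 0.824 was at the 86th percentile of the same 200.

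The Ihh domain, chr1:74875001-75100000, was short and in class 1, with direction FALSE and a probability of 0.83. Its length of 225 kb lay at the 12.7th percentile of all domains. The Ihh point stood near its middle, at 51.1% of its length from the left and 110 kb from the right edge. Its imbalance of 0.510 (69.6th percentile) was below the class 1 median of 0.704, and its imbalance difference score of 0.252 lay at the 73.7th percentile. Its cosine score of 0.522 was the lowest of the 8 (28.0th percentile), and the other 7 lay above the median of all domains, 0.652. Among the 200 domains nearest in imbalance, 171 (85.5%) were class 1, and their median probability was 0.615, so the Ihh domain ranked at the 82.8th percentile of them. Of the 777 other domains within 25% of its length, 30.9% were class 1.

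The right neighbour of the Ihh domain, chr1:75100001-75300000, stood at the other extreme. It had the shortest length of the 8, 200 kb, and the lowest imbalance, 0.0153 (2.78th percentile), imbalance difference, 0.00803 (3.12th percentile), and probability, 0.01. Its cosine of 0.823 was high, at the 85.4th percentile. By their untuned edges, the 2 domains share a boundary, and they differ by 0.82 in probability. In the 200 domains closest to it in imbalance there were 0 class 1 domains, and the median probability was 0.37.

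The Epha4 domain, chr1:75975001-77525000, was the longest of the 8 and had their highest cosine score. Its length of 1550 kb lay at the 96.0th percentile of all domains, and 13 of the 306 domains on chromosome 1 were longer. Here too each domain counts once, although a point falls more often in a long domain. The cosine of the Epha4 domain, 0.866, lay at the 92.6th percentile. Cosine scores were lower in long domains: the other 168 domains of at least this length had a median of 0.569 and a maximum of 0.827, so none of them reached the Epha4 domain. Of the 166 other domains within 25% of its length, 1 had a higher cosine.

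**Figure D2:**
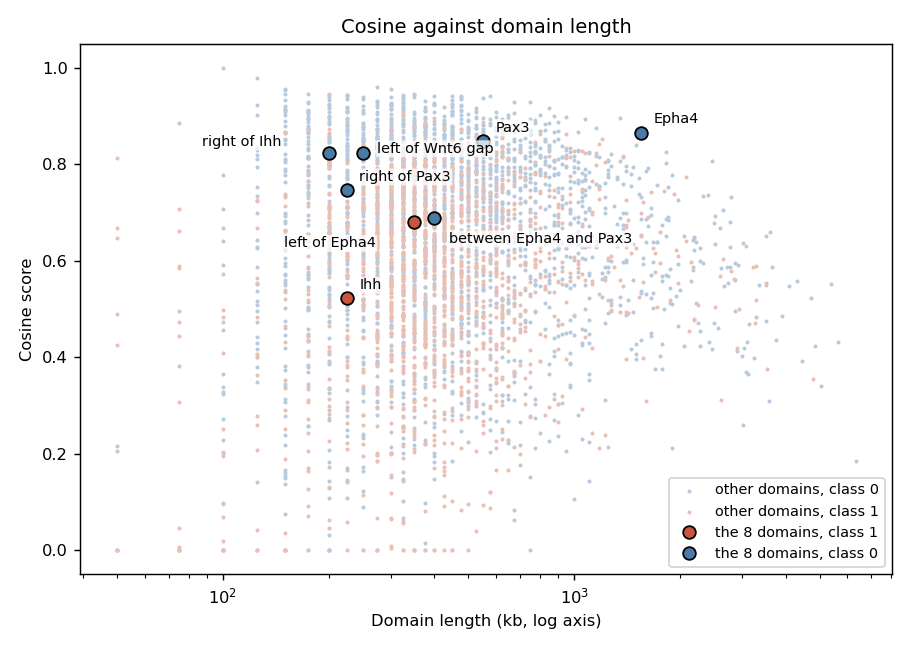
Cosine score against domain length in kb (log axis) for all domains with a cosine score, with the 8 domains drawn large and coloured by class. The Epha4 domain (1550 kb, 0.866) lies above every other domain of its length or longer, and the Ihh domain (225 kb, 0.522) is the lowest of the 8.

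The imbalance and the probability of the Epha4 domain were low. Its imbalance was 0.105 (18.2nd percentile) and its probability 0.10 (18.2nd percentile), with direction FALSE. Its imbalance difference of 0.0955 ranked higher, at the 36.8th percentile. Against the 166 domains within 25% of its length, the imbalance ranked at the 27.7th percentile, the imbalance difference at the 39.8th and the probability at the 7.83rd. Its imbalance lay inside the range of the low-imbalance class 1 domains, 0.0683 to 0.118. Among the 200 domains nearest to it in imbalance, 63 (31.5%) were class 1 and the median probability was 0.37, but the Epha4 domain was at the 11.8th percentile of their probabilities. It was at the 83.5th percentile of their cosine, the 95.5th of their imbalance difference and the 96.5th of their length.

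Across those 200 domains, lower probability went with higher cosine (Spearman's rho -0.80) and with higher imbalance difference (rho -0.76), and not with length (rho -0.01). These are descriptions over domains of 1 table that share all libraries, and whether the classifier used these scores is not stated. Around the imbalance of the Ihh domain the same correlations were -0.01 with cosine and 0.48 with imbalance difference. Around the left neighbour of Epha4 they were 0.26 and 0.75. Both were negative around the right neighbour of Ihh (-0.81 and -0.36) and the right flank of Pax3 (-0.70 and -0.33). Around the domain between Epha4 and Pax3 they were -0.81 and -0.86. The left flank of the Wnt6 gap (-0.26 and 0.17) and the Pax3 domain (-0.33 and 0.09) had weaker ones. A high imbalance difference thus went with a low probability near the Epha4 domain and other low-imbalance members. Near the 2 class 1 domains it went with a high one.

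**Figure D3:**
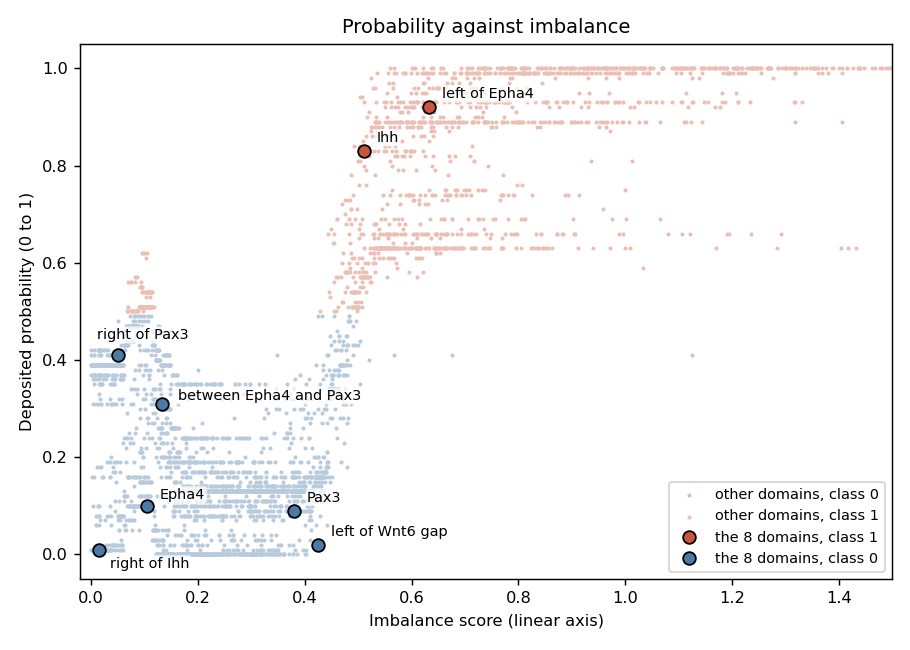
Deposited probability against imbalance score for all domains up to an imbalance of 1.5 (72 lie beyond and are not drawn), coloured by class, with the 8 domains drawn large. The Epha4 domain (0.105, 0.10) lies beneath a peak of class 1 domains at low imbalance, the left flank of the Wnt6 gap (0.425, 0.02) lies just before the steep rise, and Ihh (0.510, 0.83) lies on it.

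The Epha4 point stood 15 kb from the right edge of its domain, at 99.0% of its length. It was the closest to an edge of the 4 points: Wnt6 was 55 kb from the nearest edge, Ihh 110 kb and Pax3 265 kb. This distance is less than 1 step of the 25 kb grid on which edges lie. With the point moved by 50 kb toward higher coordinates it fell in the next domain, of 400 kb. Moved toward lower coordinates it stayed, and the other 3 points stayed in either direction. Since RefSeq has Epha4 read toward lower coordinates, a gene that starts at this point runs into the 1550 kb domain and away from the edge.

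The authors give a second pair of edges for each domain, named tuned and lying on a grid of 10 kb. How they were tuned is not stated, so a shift is given only as a distance between the 2 pairs of edges. Its tuned start lay at 75930001, 45 kb outside the domain, which is the furthest outside in the table, a value that 27 of 4124 domains had (0.655%, Epha4 included). In the 7 other domains the tuned start lay inside, by 5 to 55 kb. Its tuned end was 77510000, equal to the Epha4 point as rounded. Tuning lengthened the Epha4 domain to 1580 kb, as it did 204 domains in all (4.95%), and shortened the other 7. The tuned domain therefore overlapped its tuned left neighbour by 40 kb. An overlap of at least that size occurred in 68 of 4105 neighbouring pairs (1.66%).

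The left neighbour of the Epha4 domain, chr1:75625001-75975000, was in class 1 with direction TRUE. It was 350 kb long and had the highest probability, 0.92, the highest imbalance, 0.633 (78.4th percentile), and the highest imbalance difference, 0.308 (81.4th percentile), of the 8. Its cosine of 0.680 was close to the median of all domains (55.6th percentile). All 200 domains nearest in imbalance were class 1, and it ranked at the 73.3rd percentile of their probabilities. Its left neighbour was 325 kb and its right neighbour, the Epha4 domain, 1550 kb long.

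Between the Epha4 and the Pax3 domain lay 1 domain, chr1:77525001-77925000, of 400 kb, which is the median length of the table. It had direction TRUE, an imbalance of 0.132 (22.9th percentile), an imbalance difference of 0.0375 (15.5th percentile), a cosine of 0.690 (57.4th percentile) and a probability of 0.31. Its tuned end lay 65 kb inside the domain, at the 97.9th percentile of such shifts. After tuning, the space between the Epha4 and the Pax3 domain was 470 kb, against 400 kb by the grid.

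The Pax3 domain, chr1:77925001-78475000, was in class 0 with direction TRUE and a probability of 0.09 (16.2nd percentile). Its 550 kb lay at the 71.7th percentile, and the Pax3 point stood 265 kb from its left and 285 kb from its right edge. Its imbalance of 0.381 and imbalance difference of 0.259 lay above the medians of all domains (57.4th and 74.6th percentile). Its cosine of 0.849 was the second highest of the 8, at the 90.2nd percentile. Among the 200 domains nearest in imbalance there were 0 class 1 domains, and its probability was at the 12.8th percentile of theirs. The imbalance difference of the Pax3 domain was above that of the class 1 Ihh domain, 0.252, while its probability was lower by 0.74.

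The domain on the right of Pax3, chr1:78475001-78700000, was 225 kb long and had the highest probability of the 6 class 0 domains, 0.41, and an imbalance of 0.0511 (8.67th percentile). No other member lay within 0.1 of the threshold. In the 200 domains nearest in imbalance the probability had a median of 0.39 and a maximum of 0.48, so none was class 1. Its cosine was 0.747 (69.2nd percentile). Tuning moved its start inward by 55 kb and its end by 40 kb and left 130 kb.

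**Figure D4:**
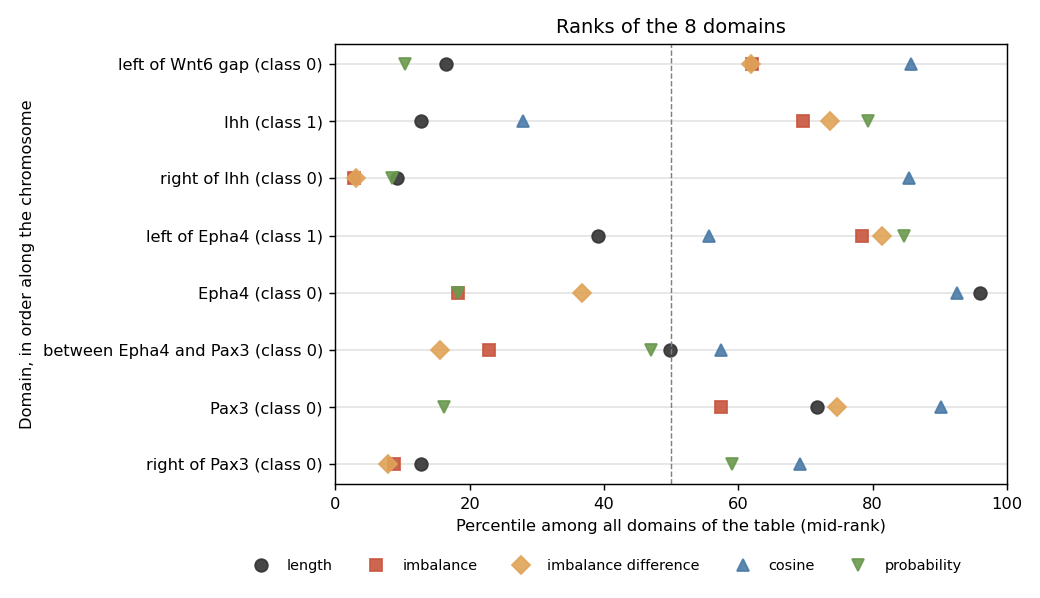
Mid-rank percentiles of the 8 domains among all domains that have a value, for length, imbalance, imbalance difference, cosine and probability, in order along the chromosome; the dashed line is the median. Only the Ihh domain has its cosine left of the line (28.0), and the Epha4 domain has the highest length (96.0) and cosine (92.6) ranks beside low imbalance and probability ranks (18.2 each).

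The 8 domains ranged widely in every score. Their cosine scores had a median of 0.785, against 0.652 in all domains and 0.656 on chromosome 1, and 4 of them lay above the upper quartile of all domains, 0.776. In order, these were the Epha4 domain, the Pax3 domain, the left flank of the Wnt6 gap and the right neighbour of Ihh, all of class 0. Class 0 as a whole had a median cosine of 0.695 and class 1 of 0.579, and the 6 class 0 members had 0.824. With so few domains, all from the same stretch, no trait of these loci is read from their medians, and the differences were not tested. Lengths ran from 200 to 1550 kb, and 5 of the 8 were shorter than the median of 400 kb. Imbalance lay below the median of all domains, 0.317, in 4 of the 8. Directions were 4 TRUE and 4 FALSE, beside 49.2% TRUE in all domains.

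The Epha4 and Pax3 domains, the domain between them and the right flank of Pax3 formed a run of 4 class 0 domains in order. No class 1 domain lay among them, and by the grid edges the run, chr1:75975001-78700000, spanned 2725 kb. Such runs were common: 240 of 930 runs of class 0 domains (25.8%) had at least 4 members, and 186 (20.0%) spanned at least as much. These shares count each run once. The run here was reached from a chosen domain, which falls in a run of many domains more often, and the share by domains was not computed. The median run had 2 domains and 1125 kb. From the Epha4 point, the nearest class 1 domain on the left was 1535 kb away and on the right 1190 kb. From the Pax3 point these distances were 2215 and 510 kb, and from the Ihh point, its own domain left out, 740 and 310 kb. The class 1 domains that ended the run were the left neighbour of Epha4, with 0.92, and chr1:78700001-79750000, of 1050 kb, direction TRUE and probability 0.99. The class 1 domain next to the left flank of the Wnt6 gap was chr1:73900001-74250000, also with 0.99.

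Domains most like those of the 3 genes were sought over the whole table, by the distance between their percentiles of length, imbalance, imbalance difference, cosine and probability. For the Epha4 domain these were chr5:44675001-45825000 (1150 kb, cosine 0.876), chr13:82025001-83850000 (1825 kb, cosine 0.827) and chr15:94525001-95425000 (900 kb, cosine 0.887). All 3 were class 0 with a probability of 0.10, the value of the Epha4 domain, and imbalance between 0.101 and 0.106. For every match given here, likeness in the 5 measures, and in class through the probability, was set by the search itself. The Ihh domain was closest to chr16:32500001-32700000 (200 kb, imbalance 0.535, probability 0.89, direction TRUE), followed by domains on chromosomes 2 and 3, both with a probability of 0.66. The Pax3 domain was closest to chr11:8325001-8875000 (550 kb, imbalance 0.411, probability 0.09), followed by domains on chromosomes 12 and 4 with probabilities of 0.09 and 0.11. The closest of these matches was the first for Epha4, at 3.53 percentile points over the 5 measures, against 6.08 for Ihh and 6.78 for Pax3.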

How the data were processed

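The data were 1 deposited table of chromatin domains for 3 Hi-C libraries together. The genome build was mm9, and reads went through Juicer and BWA, per the submitters' processing notes, which give no versions. The file name of the deposited table names TopDom for the domains, a quantile of 0.98 and a random forest with a threshold of 0.5. The deposited probability is a fraction from 0 to 1. The deposited imbalance, imbalance difference and cosine are scores whose formulas are not stated in the labels or the table; 2 domains lack cosine and probability and have an infinite imbalance.

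Domains were located with Python 3.11.15 and pandas 2.3.3. Percentiles count ties at their middle rank. Starts are written counting from 1. The gene points came with the choice of loci and were not set against an mm9 annotation. Members and lists were chosen with earlier results of these data known, so no value was tested. The rule for names was the 4 genes, their domains and flanks, and the 3 most alike domains of each. The functions were tested on a small made-up table. Depth is unknown.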

Additional observations from a re-analysis of the deposited data

How the results depend on the processing

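No paired analysis was possible because all 3 libraries belong to 1 group, and leaving out a library was not possible because no values per library were used. The number of class 1 domains was 2 of 8 at a probability of 0.7 or more and 1 at 0.9 or more. The shares of all domains at these stricter thresholds were not computed, so these counts have no background here. The upper quartile of probability over all domains was 0.66. At the deposited threshold, the number of class 1 domains was 1 of 3 when only the domains holding a point were kept. With 2 domains on each side it was 5 of 11, where the 3 added domains were all class 1. The background at the deposited threshold only was 35.1% class 1 in all domains and 35.6% on chromosome 1. Nothing about the domains is read from any of these counts. Tuned edges gave lengths of 390 kb for the Wnt6 gap, 180 kb for the Ihh domain, 1580 kb for the Epha4 domain and 440 kb for the Pax3 domain. With the points moved by 50 kb, Epha4 moved toward higher coordinates fell in a domain of 400 kb, and the 7 other moves changed no domain. No percentile crossed the median under 3 other rankings: against chromosome 1 the 40 percentiles moved by -6.38 to 3.55 points, against domains within 25% of the same length 32 moved by -10.4 to 9.51 points, and as strict shares below 40 moved by -2.93 to -0.01 points. What depth limits cannot be said, since it is unknown.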
